A study of Mus musculus with 9 samples.

Results

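Of the 55487 genes listed in each table, 6 are described here: the gonadotropin receptor genes Fshr and Lhcgr, the hormone gene Amh and its receptor gene Amhr2, and Cyp19a1 and Hsd17b1, which encode 2 enzymes of estradiol synthesis. They were taken by exact match of the gene symbol, and each symbol had 1 row. The libraries are bulk RNA-seq of whole ovary from C57BL/6 mice whose labelled genotype is an oocyte-specific knock-in of PIK3CA*, and the series title calls it a transgene. There are 3 libraries from postnatal day 8, 3 from day 50 and 3 from day 65, and the series calls the tissue tumor samples. All 9 carry the knock-in, so every comparison is one of age within 1 genotype, and ovaries without the knock-in were not analysed here. The labels give neither the driver of the oocyte-specific knock-in nor whether animals were pooled. Nor do they tell whether each library is a different animal, and the p-values below therefore reflect library-to-library spread that may be technical.

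Follicle-stimulating hormone (FSH) acts through the receptor FSHR on granulosa cells, the somatic cells that surround the oocyte. Luteinizing hormone (LH) acts through LHCGR, which is found on theca cells and, late in follicle growth, on granulosa cells. Both receptors couple to the stimulatory G protein and raise cAMP, which activates protein kinase A. Theca cells make androgens, and granulosa cells convert them to estrogens with aromatase, the product of Cyp19a1. The enzyme encoded by Hsd17b1 reduces estrone to the more active estradiol. Anti-Müllerian hormone (AMH) is secreted by granulosa cells of small growing follicles and signals through its own type 2 receptor, AMHR2, and through type 1 receptors and SMAD proteins that it shares with bone morphogenetic proteins. In mouse ovary it is known to restrain the recruitment of resting follicles and to lower the response of follicles to FSH.

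The 9 libraries held 14116908 to 18868831 expected counts each, and 17747 genes passed the filter on low counts, all 6 genes among them. Day 8 replicate 1 stood apart from the other day 8 libraries: ribosomal protein genes took 11.3% of its counts against 4.33% and 5.72% in the other two, and 9.56% to 12.5% at day 65 against 3.05% to 3.58% at day 50. All 12 markers of a granulosa cell list had counts at each age. Summed, they reached 2197 to 2763 normalized CPM (counts scaled to a common library size) on day 8. The range was 16277 to 18493 on day 50 and 9590 to 11141 on day 65. Gja1, Inha, Serpine2 and Inhba were the largest parts of the sum at both later ages, and the list did not move as one. By the edgeR test described below, 9 of the 12 rose to day 50 (19.5% of all genes tested), and Gata4, Wt1 and Slc18a2 did not pass. At day 65, 9 stood above day 8 (29.7% of all genes) and 2 below, Wt1 and Kitl (32.6%). Mean Wt1 was 405, 206 and 30.9 normalized CPM at the 3 ages. The 12 oocyte markers summed to 3186 to 3615, 122 to 187 and 66.2 to 128 normalized CPM at the 3 ages, and the 10 theca cell markers to 397 to 864, 3564 to 4074 and 1219 to 1869. The oocyte sums of day 50 and day 65 overlapped, and these markers did not move as one between those ages. Of the 12, Dazl and Gdf9 were called higher at day 65 (edgeR adjusted p = 1.35e-04 and 0.0412), 5 lower and 5 not called. Over all genes, 27.5% were higher and 28.4% lower at that step. No marker of these 3 lists was at 0 in all libraries of an age, though the oocyte markers Figla, Oosp1 and Bmp15 were each at 0 in 1 or 2 libraries of the later ages. In bulk tissue, fewer cells of a type and less RNA per cell cannot be told apart. The part of these shifts in the results below was not tested.

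Between day 8 and day 50, 4 of the 6 genes rose: Fshr, Lhcgr, Cyp19a1 and Hsd17b1. None fell, and Amh and Amhr2 did not pass the test. Over all genes tested, 40.8% were called in this comparison. A gene was called at an adjusted p under 0.05 in edgeR's quasi-likelihood test, adjusted by Benjamini-Hochberg over all 17747 genes, and by that rule 19.5% of all genes tested were higher at day 50 and 21.4% lower. Between day 50 and day 65, 4 of the 6 fell, namely Fshr, Lhcgr, Amh and Cyp19a1, and none rose, beside 28.4% of all genes lower and 27.5% higher (55.9% in either direction). Between day 8 and day 65, Hsd17b1 was higher and Fshr and Amh were lower, beside 29.7% of all genes higher and 32.6% lower (62.3% in either direction). These 3 comparisons share libraries with each other, and the spread was estimated over all 9.

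**Figure D1:**
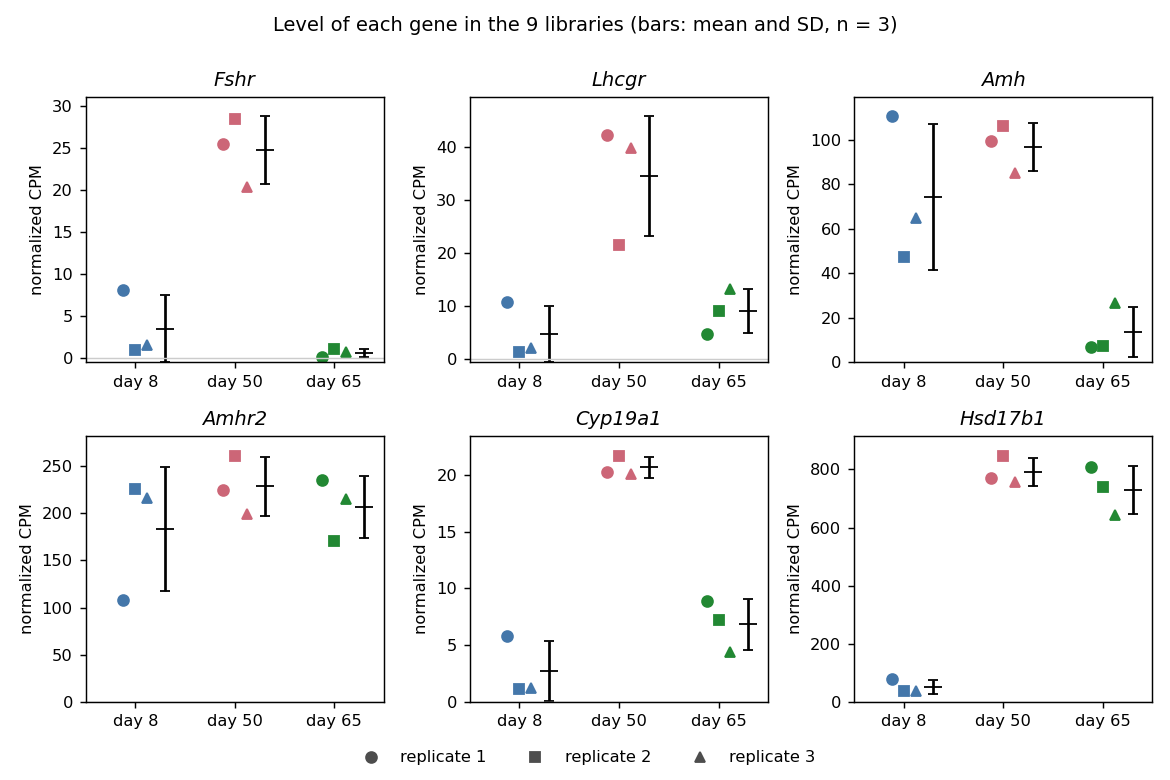
Normalized CPM (y axis) of each gene at days 8, 50 and 65 (x axis); each symbol is 1 library and its shape the replicate number, and the black bar is the mean with the SD of 3 libraries. Fshr, Lhcgr and Cyp19a1 stand highest at day 50, Hsd17b1 is high at both later ages, Amh is low at day 65, and day 8 replicate 1 lies apart from the other day 8 libraries in each panel.

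Fshr (chromosome 17, 88985170 to 89200612, GRCm38 as in the files) encodes the FSH receptor. Its level was 8.08, 0.931 and 1.52 normalized CPM in day 8 replicates 1, 2 and 3. At day 50 it was 25.5, 28.4 and 20.4 normalized CPM. At day 65 it was 0.166, 1.11 and 0.690 normalized CPM, which rest on 2, 17 and 12 counts. All day 50 libraries lay above all others, and the day 8 and day 65 ranges overlapped. The mean went from 3.51 ± 3.97 to 24.8 ± 4.04 and then to 0.656 ± 0.474 normalized CPM (SD, n = 3 libraries per age). The rise to day 50 was 7.22-fold (log2 fold change 2.85, SE 0.687, edgeR adjusted p = 0.00816). Day 8 replicate 1 held much of the day 8 level, and without it the rise was 20.1-fold (edgeR adjusted p = 5.27e-05). The fall from day 50 to day 65 was 36.1-fold (log2 fold change -5.17, SE 0.813, edgeR adjusted p = 5.81e-04). Relative to day 8, the day 65 level was lower too (log2 fold change -2.32, SE 0.814, edgeR adjusted p = 0.0299). That call ended without day 8 replicate 1 (log2 fold change -0.84, edgeR adjusted p = 0.162), without day 65 replicate 1 (edgeR adjusted p = 0.0933) and without day 65 replicate 3 (edgeR adjusted p = 0.0693).

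Lhcgr (chromosome 17, 88741549 to 88791976) encodes the LH receptor. Its level was 10.7, 1.16 and 1.97 normalized CPM in the 3 day 8 libraries. At day 50 it was 42.3, 21.5 and 39.8 normalized CPM, lowest in replicate 2. At day 65 it was 4.73, 9.03 and 13.2 normalized CPM. The day 50 libraries lay above all others, while day 8 replicate 1 lay inside the day 65 range. The rise from 4.60 ± 5.28 to 34.5 ± 11.4 normalized CPM (SD, n = 3) was 7.69-fold (log2 fold change 2.94, SE 0.709, edgeR adjusted p = 0.00814), and 21.9-fold without day 8 replicate 1 (edgeR adjusted p = 1.95e-04). The level then fell 3.81-fold to 8.99 ± 4.25 normalized CPM (log2 fold change -1.93, SE 0.670, edgeR adjusted p = 0.0320). That call ended without day 50 replicate 1 (edgeR adjusted p = 0.0953) or 3 (0.0884), and without day 65 replicate 1 (0.0990) or 2 (0.0786). With each library's trend on gene length and GC content removed, it ended too (log2 fold change -1.29, edgeR adjusted p = 0.125). For day 65 against day 8 the log2 fold change of 1.02 (SE 0.697) did not pass (edgeR adjusted p = 0.228). Without day 8 replicate 1 that difference was 2.52 and passed (edgeR adjusted p = 0.00206).

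Amh (chromosome 10, 80805248 to 80807648) encodes the hormone. Its level was 111, 47.3 and 65.0 normalized CPM in the day 8 libraries. At day 50 it was 99.6, 106 and 85.1 normalized CPM. At day 65 it was 6.88, 7.52 and 26.7 normalized CPM, and replicate 3 stood above the other two. The day 8 and day 50 ranges overlapped, and every day 65 library lay below both. The means were 74.3 ± 32.7, 96.98 ± 10.8 and 13.7 ± 11.2 normalized CPM (SD, n = 3 per age). Day 50 against day 8 gave a log2 fold change of 0.39 (SE 0.465, edgeR adjusted p = 0.540). The fall from day 50 to day 65 was 7.00-fold (edgeR adjusted p = 0.00121), and 13.5-fold without day 65 replicate 3 (edgeR adjusted p = 1.21e-04). The log2 fold change of day 65 against day 8 was -2.42 (SE 0.499, edgeR adjusted p = 0.00193), and -3.35 without day 65 replicate 3 (edgeR adjusted p = 6.76e-05). That library also had the highest summed oocyte markers of day 65, with 66.2, 71.7 and 128 normalized CPM in replicates 1 to 3. Zp2 was at 0.249, 0.327 and 9.49 and Wt1 at 6.72, 29.7 and 56.3 in the same order. Dazl (14.1, 19.0 and 12.5) and the summed granulosa markers were lowest in replicate 3. Whether these go with its Amh level was not tested.

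Amhr2 (chromosome 15, 102445367 to 102454630) encodes the type 2 receptor that binds AMH. Its level was 108, 225 and 216 normalized CPM at day 8, where replicate 1 was the low library, unlike its place for the other 5 genes. At day 50 it was 225, 261 and 199, and at day 65 235, 171 and 215 normalized CPM. The libraries of all 3 ages overlapped. The means were 183 ± 65.6, 228 ± 31.1 and 207 ± 33.05 normalized CPM (SD, n = 3). No comparison passed in normalized CPM: the log2 fold change was 0.32 (SE 0.258, edgeR adjusted p = 0.350) for day 50 against day 8 and -0.14 (SE 0.258, edgeR adjusted p = 0.656) for day 65 against day 50. For day 65 against day 8 it was 0.18 (SE 0.258, edgeR adjusted p = 0.574), a direction that turned with library size as the only scaling (-0.15), with the length and GC trend removed (-0.34), without day 8 replicate 1 (-0.10) and in TPM (-0.47). In TPM, Amhr2 was called lower at day 65 than at day 50 (log2 difference -1.03, limma adjusted p = 0.0309), so whether it fell depends on the scaling.

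For 4 of the 6 genes RefSeq promoter windows on GRCm38.p6 were available. The 250 bases upstream of the RefSeq start are shown for Fshr, Lhcgr and Amhr2. Fshr and Lhcgr both rose to day 50 and then fell, by 36.1-fold and 3.81-fold. The level of Amhr2 passed no test in normalized CPM. The windows are written 5′ to 3′ along the gene's strand, and capitals mark matches to any of 7 motifs searched on both strands. The first is AAGGTCA, which NR5A nuclear receptors are known to bind. The second is TGACG, the core of a response element through which cAMP acts. The third is GATAA, which transcription factors of the GATA family are known to recognize. The fourth is AACAAT, which transcription factors of the SOX family are known to recognize. The fifth is TAAACA, which forkhead transcription factors are known to recognize. The sixth is CACGTG, the E-box that upstream stimulatory factors are known to bind. The seventh is the core promoter element written TATAAA.
Fshr, chr17:89200676-89200925, minus strand: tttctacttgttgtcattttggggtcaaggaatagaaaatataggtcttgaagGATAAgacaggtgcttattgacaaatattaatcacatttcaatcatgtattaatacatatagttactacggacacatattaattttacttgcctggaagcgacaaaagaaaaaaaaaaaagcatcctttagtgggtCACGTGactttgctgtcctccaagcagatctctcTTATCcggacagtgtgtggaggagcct
Lhcgr, chr17:88792015-88792264, minus strand: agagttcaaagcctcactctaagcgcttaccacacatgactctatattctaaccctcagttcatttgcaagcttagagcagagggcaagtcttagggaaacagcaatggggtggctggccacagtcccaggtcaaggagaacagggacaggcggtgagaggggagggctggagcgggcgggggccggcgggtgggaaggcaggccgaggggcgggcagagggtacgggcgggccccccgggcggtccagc
Amhr2, chr15:102445117-102445366, plus strand: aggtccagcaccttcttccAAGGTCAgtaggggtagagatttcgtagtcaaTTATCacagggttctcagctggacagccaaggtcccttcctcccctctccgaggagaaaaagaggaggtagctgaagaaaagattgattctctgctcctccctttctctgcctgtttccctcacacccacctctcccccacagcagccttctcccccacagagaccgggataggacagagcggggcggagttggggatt

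The Fshr window held the E-box from 61 to 56 bases upstream of the start and 2 GATAA matches, one on each strand. The E-box letters occur in 6.02% of 32851 windows of the same length, and GATAA in 22.6%. The Amhr2 window held AAGGTCA from 231 to 225 bases upstream, letters found in 4.08% of windows, and 1 GATAA match on the opposite strand. The Lhcgr window held none of the 7 motifs, which says only that these letters are not in these 250 bases. No match overlapped another. The other shares were 17.8% for TGACG, 9.42% for AACAAT, 12.0% for TAAACA and 12.4% for TATAAA. A match is a description of the letters and not a measured binding site. The RefSeq start lay 63 bases upstream of the gene's start in the files for Fshr and 38 for Lhcgr, and at the same base for Amhr2. RefSeq gave 3 starts for Cyp19a1, the nearest 301 bases upstream of the gene's start in the files, so no window is shown for it.

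Cyp19a1 (chromosome 9, 54165937 to 54193442) encodes aromatase. Its level was 5.78, 1.11 and 1.24 normalized CPM at day 8, again highest in replicate 1. At day 50 it was 20.2, 21.7 and 20.1 normalized CPM, with the smallest SD relative to the mean of any gene and age among the 6. At day 65 it was 8.87, 7.20 and 4.43 normalized CPM. The day 50 libraries lay above all others, and day 8 replicate 1 lay inside the day 65 range. The mean rose 7.82-fold from 2.71 ± 2.66 to 20.7 ± 0.912 normalized CPM (SD, n = 3; log2 fold change 2.97, SE 0.556, edgeR adjusted p = 0.00205), and 17.6-fold without day 8 replicate 1 (edgeR adjusted p = 1.11e-05). It then fell 3.04-fold to 6.83 ± 2.25 normalized CPM (log2 fold change -1.60, SE 0.517, edgeR adjusted p = 0.0234). That call ended without day 50 replicate 1 (edgeR adjusted p = 0.0566), 2 (0.0637) or 3 (0.0561), and without day 65 replicate 2 (0.0542) or 3 (0.0695). For day 65 against day 8 the log2 fold change of 1.36 (SE 0.549) fell just outside the threshold (edgeR adjusted p = 0.0519). Without day 8 replicate 1 the difference was 2.52 (edgeR adjusted p = 9.92e-05), and it passed without day 65 replicate 3 (edgeR adjusted p = 0.0362).

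Hsd17b1 (chromosome 11, 101078411 to 101080527) encodes the 17-beta-hydroxysteroid dehydrogenase that forms estradiol from estrone. Its level was 78.2, 35.6 and 36.3 normalized CPM at day 8. At day 50 it was 769.9, 848 and 755, and at day 65 809, 738 and 644 normalized CPM. The later ages overlapped each other and lay far above day 8. The rise from 50.03 ± 24.4 to 791 ± 49.7 normalized CPM (SD, n = 3) was 15.8-fold (log2 fold change 3.98, SE 0.318, edgeR adjusted p = 9.50e-06). Day 65, at 730.2 ± 82.8 normalized CPM, was 14.6-fold above day 8 (edgeR adjusted p = 6.75e-06). From day 50 to day 65 the log2 fold change was -0.12 (SE 0.281, edgeR adjusted p = 0.745). On the TPM scale, however, Hsd17b1 was lower at day 65 in every library, so whether it fell depends on the scaling.

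**Figure D2:**
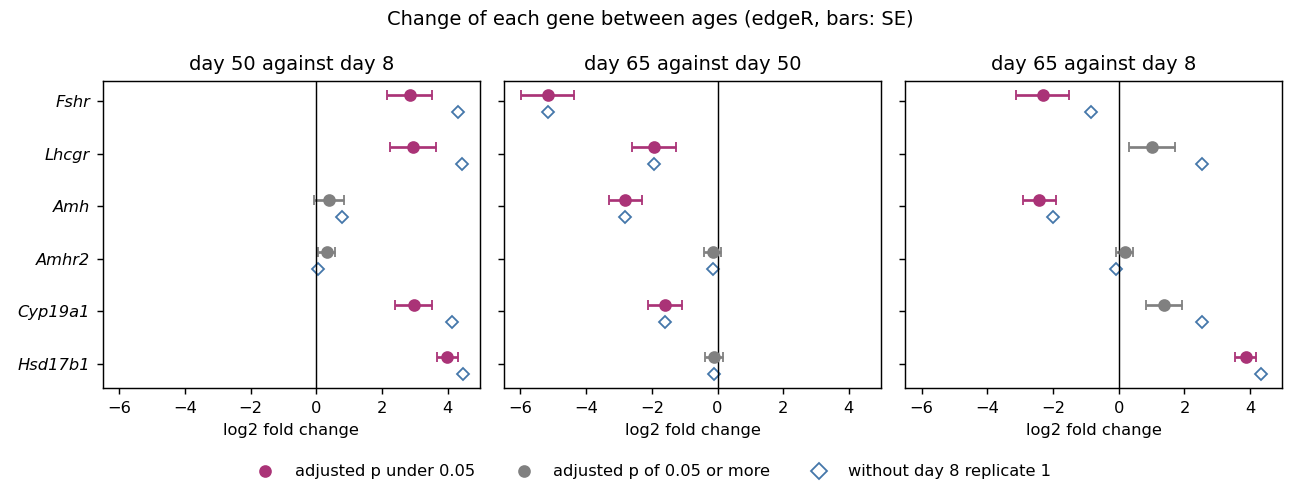
Log2 fold change (x axis) of each gene in the 3 comparisons, for all 9 libraries (filled circles, bars are the SE from edgeR, gray where the adjusted p is 0.05 or more) and without day 8 replicate 1 (open diamonds). Without that library the rises of Fshr, Lhcgr and Cyp19a1 to day 50 are larger, and the difference of Fshr between days 65 and 8 shrinks from -2.32 to -0.84.

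Levels of different genes were compared in TPM, a unit that the authors scaled to gene length. At day 8, Amhr2 was at 76.1, 263 and 230 TPM, Amh at 79.7, 56.3 and 73.5, and Hsd17b1 at 71.1, 53.5 and 51.7. The other 3 genes lay between 0.54 and 4.06 TPM in those libraries. At day 50, Hsd17b1 led with 1083 to 1164 TPM, Amhr2 had 226 to 269 and Amh 97.1 to 116. Fshr (16.3 to 21.6), Lhcgr (11.3 to 24.7) and Cyp19a1 (15.2 to 15.96 TPM) stood within one range. At day 65, Hsd17b1 was at 550 to 630 TPM, Amhr2 at 112 to 135, Amh at 3.71 to 18.4, Lhcgr at 0.92 to 4.86, Cyp19a1 at 2.12 to 3.36 and Fshr at 0.06 to 0.53. The order of Amhr2 above Amh held in 8 of 9 libraries, all but day 8 replicate 1. On log2(TPM + 0.1), a test chosen after seeing the data, limma called Hsd17b1 (-0.94, limma adjusted p = 0.00140) and Amhr2 (-1.03, limma adjusted p = 0.0309) lower at day 65 than at day 50. The median over all genes tested was itself -0.79 on that scale, against -0.06 in normalized CPM.

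Ratios of 2 genes within a library do not depend on the scaling between libraries. The ratio of Amh to Amhr2 in TPM was 1.05, 0.214 and 0.320 at day 8, 0.462, 0.430 and 0.429 at day 50, and 0.0332, 0.0442 and 0.137 at day 65. All day 65 ratios lay below all others. The ratio of Cyp19a1 to Hsd17b1 was 0.0394, 0.0174 and 0.0292 at day 8, 0.0140, 0.0137 and 0.0142 at day 50, and 0.00604, 0.00533 and 0.00378 at day 65. The ages did not overlap in these libraries, and the ratio was lower at each later age. The day 8 ratios rest on 78, 19 and 22 counts of Cyp19a1, and the TPM of replicate 3 used a length of 1555 bases. Their separation from day 50 is therefore uncertain. The ratio of Lhcgr to Fshr was 0.586, 0.692 and 0.625 at day 8, 1.24, 0.523 and 1.43 at day 50, and 15.3, 7.00 and 14.7 at day 65. The first 2 ages overlapped and every day 65 ratio lay above them. These ratios were not tested, and those with Fshr at day 65 rest on its 31 counts in all.

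**Figure D3:**
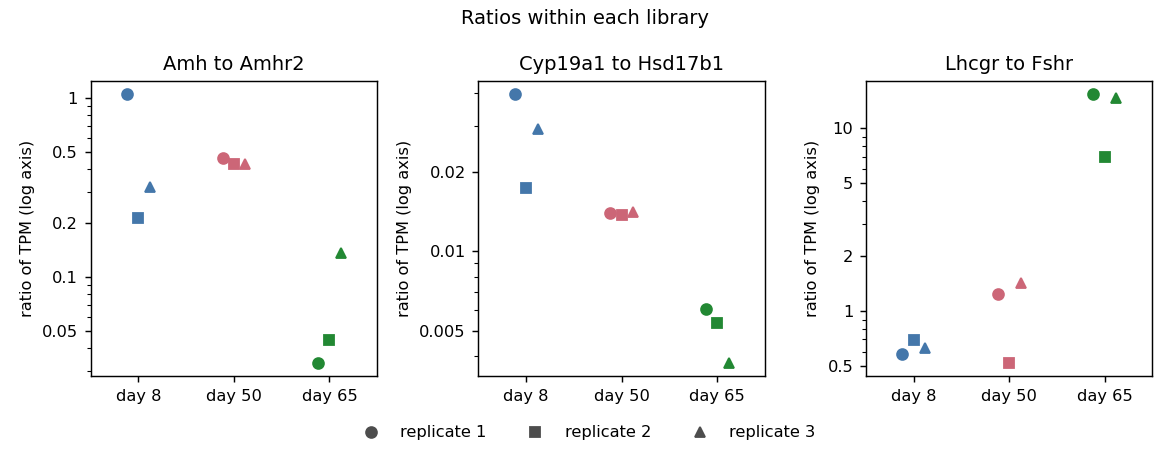
Ratio of TPM within each library (y axis, log scale) for 3 pairs of genes at days 8, 50 and 65; each symbol is 1 library. The ratio of Amh to Amhr2 and that of Cyp19a1 to Hsd17b1 are lowest at day 65, and that of Lhcgr to Fshr is highest there.

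The gene length that RSEM reports is a mean over annotated transcripts weighted by their estimated abundance, so it moves when reads are assigned to other transcripts. Fshr, Amh and Hsd17b1 have 1 annotated transcript each and a fixed length. For Cyp19a1 the length was 2451, 2439 and 2449 bases at day 50, and 2373, 2385 and 2373 bases at day 65. In GENCODE M21, Cyp19a1-203 is 2451 bases long and Cyp19a1-201 2373 bases. The first exon of Cyp19a1-203 begins 80 bases further upstream, and its 3′ end is 2 bases shorter. Their annotated coding lengths differ too, with 1308 bases for Cyp19a1-203 and 1509 for Cyp19a1-201. At day 8 the RSEM length of Cyp19a1 was 2451, 2330 and 1555 bases, on 78, 19 and 22 counts. For Lhcgr it was 4150 to 5220 bases at day 8, 3127 to 3375 at day 50 and 4506, 2701 and 3074 at day 65. Its annotated transcripts run from 653 bases to the 6828 bases of Lhcgr-201, the one that encodes the receptor. The day 8 lengths of Lhcgr lay above all day 50 lengths and overlapped the day 65 lengths, and this length enters its TPM. The reads per transcript were not analysed here, coverage of the 5′ end was not tested, and these lengths were given no test.

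**Figure D4:**
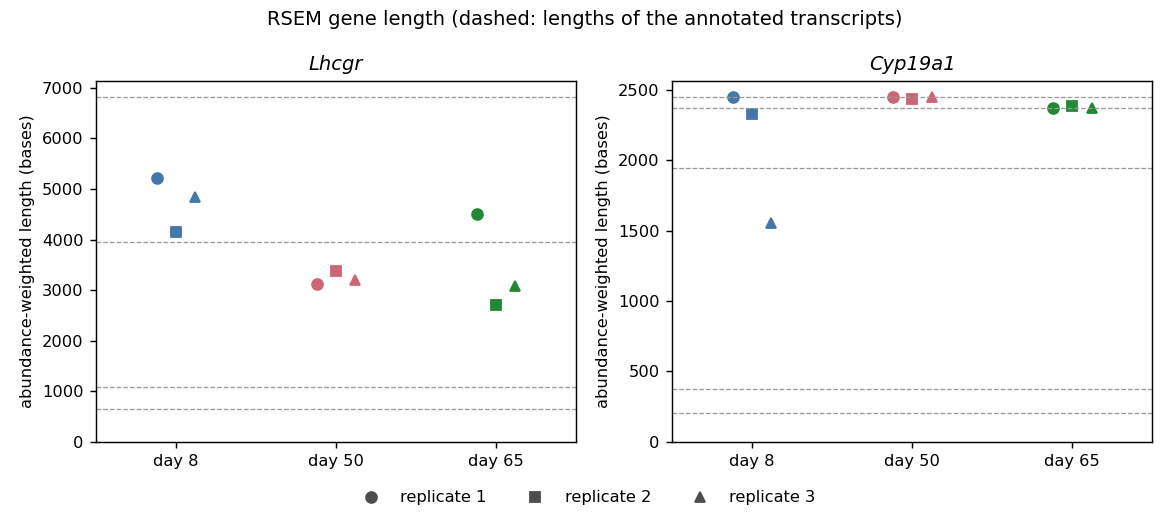
Abundance-weighted gene length from RSEM in bases (y axis) at days 8, 50 and 65 for Lhcgr and Cyp19a1; each symbol is 1 library and dashed lines are the lengths of annotated transcripts. Cyp19a1 sits at or near the 2451-base line at day 50 and the 2373-base line at day 65, and the day 8 lengths of Lhcgr lie above those at day 50 but overlap those at day 65.

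Genes that act with the 6 were counted from lists drawn up with earlier results of these data known. Over all genes tested, the median log2 fold change was -0.04 for day 50 against day 8, -0.06 for day 65 against day 50 and -0.05 for day 65 against day 8. Beside the counts of each list below stand 19.5% of all genes higher and 21.4% lower at day 50 against day 8. For day 65 against day 50 the shares were 27.5% higher and 28.4% lower, and for day 65 against day 8 29.7% and 32.6%. No list was tested against these shares. At day 65 against day 50 the rises within the lists depend on the scaling: on the TPM scale none of the 8 lists had a gene called higher at that step, while each list median kept its sign there and at day 50 against day 8. In the relay of cAMP and protein kinase A below the receptors, 4 of 16 tested genes rose to day 50 and 2 fell (median log2 fold change 0.36), and 3 rose and 8 fell from day 50 to day 65 (median -0.41). At day 50 the relay's calls in either direction stood near the 40.8% of all genes. Prkar2b, the type II beta regulatory subunit of protein kinase A, rose from 144 ± 73.4 to 1833 ± 225 and fell to 485 ± 24.2 normalized CPM (SD, n = 3; edgeR adjusted p = 2.13e-05 and 5.97e-04). Adcy9, an adenylyl cyclase, rose from 15.1 ± 3.89 to 90.3 ± 14.9 and fell to 8.15 ± 0.863 normalized CPM (edgeR adjusted p = 9.69e-06 and 8.44e-06). Pde4d, a phosphodiesterase that breaks down cAMP, stood at 4.73 ± 1.02 normalized CPM on day 50 and fell to 1.68 ± 0.421 on day 65 (edgeR adjusted p = 0.00162). The 3 genes that rose at that step were Prkar2a, Arrb2 and Pde4b. Prkar2a fell from 60.4 ± 6.60 to 32.8 ± 4.51 and rose to 59.9 ± 13.9 normalized CPM (edgeR adjusted p = 0.00367 and 0.00283). Arrb2 also fell and then rose (edgeR adjusted p = 0.0101 and 0.0175), and Pde4b rose after day 50 (edgeR adjusted p = 0.0140).

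Of 17 tested genes known to respond to FSH in granulosa cells, 11 rose and 1 fell between day 8 and day 50 (median 2.16), and 2 rose and 9 fell between day 50 and day 65 (median -0.85). Against day 8, 11 were higher and 4 lower at day 65 (median 1.37). Inhbb, the inhibin and activin beta B subunit, rose from 155 ± 69.1 to 1948 ± 91.9 normalized CPM (edgeR adjusted p = 1.61e-05) and was at 2846 ± 332 at day 65. Nr5a2, a nuclear receptor of granulosa cells, rose from 73.3 ± 38.0 to 667 ± 28.6 and fell to 139.9 ± 36.4 normalized CPM (edgeR adjusted p = 6.40e-05 and 3.55e-04). Nppc, which encodes C-type natriuretic peptide, rose from 6.84 ± 2.43 to 29.1 ± 2.30 and fell to 7.05 ± 1.83 (edgeR adjusted p = 2.48e-04 and 2.45e-04). Igf1r, the receptor of insulin-like growth factor 1, fell from 138 ± 22.3 at day 8 to 44.8 ± 12.7 at day 50 (edgeR adjusted p = 3.23e-04). The summed granulosa markers given above were also highest at day 50, but the lists share Inha, Inhba, Fst, Nr5a2, Esr2 and Gja1. The 6 markers not shared did not move together between day 50 and day 65. Slc18a2, a vesicular monoamine transporter, rose from 99.4 ± 23.7 to 697 ± 137 normalized CPM (edgeR adjusted p = 4.27e-05). Foxl2, a transcription factor of granulosa cells, stood at 310.2 ± 9.59 and then 466 ± 67.2 and was called higher (edgeR adjusted p = 0.0220), though not on the TPM scale. Kitl, the ligand of the KIT receptor, fell from 284 ± 44.3 to 20.4 ± 5.92 (edgeR adjusted p = 7.94e-06), Wt1 also fell (edgeR adjusted p = 0.00266), and Serpine2 and Gata4 did not pass.

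Of 13 tested genes that respond to LH in the preovulatory follicle, 4 rose and 2 fell between day 8 and day 50 (median 0.26), and 5 rose and 5 fell between day 50 and day 65 (median -0.28). The calls between day 8 and day 50 stood near the share over all genes, 40.8% in either direction. Runx2, a transcription factor, was higher at each later age, with 1.78 ± 0.263, 7.93 ± 1.74 and 23.1 ± 2.85 normalized CPM (edgeR adjusted p = 6.20e-05 and 2.46e-04). Cebpb, a transcription factor, took the same course, from 20.9 ± 1.47 to 43.02 ± 4.76 and 88.7 ± 13.9 (edgeR adjusted p = 3.71e-04 and 2.81e-04). On the TPM scale the rises of both after day 50 did not pass. Star, which carries cholesterol into mitochondria, rose from 31.2 ± 1.34 to 57.7 ± 4.14 and fell to 22.05 ± 4.56 (edgeR adjusted p = 0.00121 and 9.39e-05). Ereg, the growth factor epiregulin, fell between day 8 and day 50 from 2.02 ± 0.467 to 0.308 ± 0.124 normalized CPM (edgeR adjusted p = 0.00171).

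**Figure D5:**
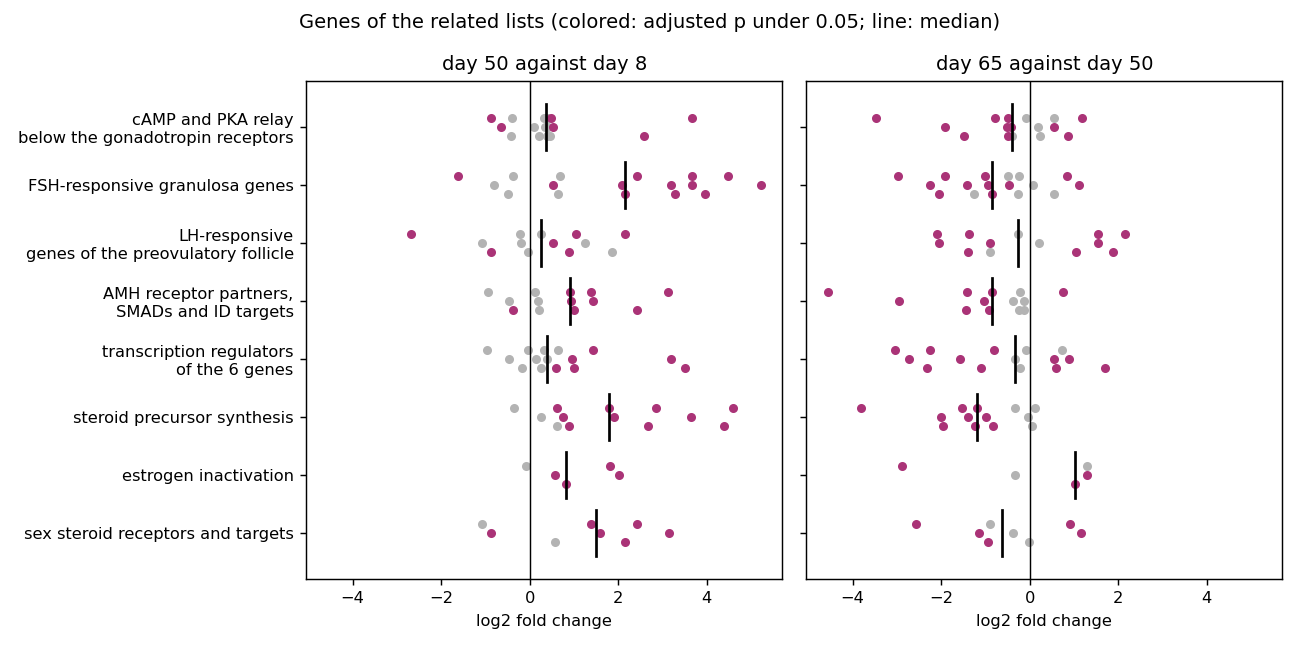
Log2 fold change (x axis) of each tested gene in 8 related lists (y axis) for day 50 against day 8 and day 65 against day 50; colored points passed edgeR's test at an adjusted p under 0.05 and vertical lines are list medians. The steroid precursor list has its median at 1.80 in the first comparison and at -1.19 in the second.

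Among 13 partners of the AMH receptor, SMADs and ID genes, 7 rose and 1 fell between day 8 and day 50 (median 0.91), and 1 rose and 7 fell between day 50 and day 65 (median -0.84). Taken in either direction, the calls at the second step stood near the 55.9% of all genes. Bmpr1b, a type 1 receptor of bone morphogenetic proteins, rose from 33.99 ± 3.28 to 183 ± 11.4 normalized CPM (edgeR adjusted p = 4.83e-06) and was at 141 ± 29.3 at day 65. Of the other type 1 receptors listed, Acvr1 rose from 21.3 ± 2.65 to 43.0 ± 0.331 (edgeR adjusted p = 2.41e-04) and did not pass after day 50. Bmpr1a did not pass at the first step and fell from 181 ± 9.15 at day 50 to 94.7 ± 12.4 at day 65 (edgeR adjusted p = 3.37e-04). Smad9, one of the receptor-activated SMADs of this branch, rose from 1.55 ± 0.458 to 13.5 ± 4.43 and fell to 0.542 ± 0.343 (edgeR adjusted p = 2.41e-04 and 5.96e-05). The log2 fold change of its fall was -4.56, and -5.19 without day 65 replicate 3. Smad6, an inhibitory SMAD, rose from 12.7 ± 0.558 to 34.2 ± 6.59 and fell to 12.8 ± 2.37 (edgeR adjusted p = 2.23e-04 and 2.13e-04). Id2, an inhibitor of helix-loop-helix transcription factors, fell from 145 ± 9.23 at day 50 to 18.7 ± 11.0 at day 65 (edgeR adjusted p = 1.72e-04).

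Of 15 transcription factors and cofactors known to act on one or more of the 6 genes, 6 rose and 0 fell between day 8 and day 50 (median 0.39). Taken in either direction, that is near the 40.8% of all genes called. Between day 50 and day 65, 4 rose and 7 fell (median -0.34). Foxo1, a forkhead factor of granulosa cells, rose from 88.3 ± 26.2 to 1010.0 ± 85.8 normalized CPM (edgeR adjusted p = 5.16e-06). Gata6 rose from 113 ± 13.8 to 219 ± 4.41 and fell to 102 ± 14.2 (edgeR adjusted p = 5.41e-04 and 2.01e-04). Zfpm2, a cofactor of GATA factors, fell from 44.6 ± 6.99 to 8.84 ± 2.91 between day 50 and day 65 (edgeR adjusted p = 7.00e-05). Sox8, of the same family as Sox9, rose from 5.30 ± 0.358 to 17.3 ± 0.459 at that step (edgeR adjusted p = 1.83e-04), though not on the TPM scale.

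Of 13 tested genes of a list for steroid precursor synthesis, which also holds genes outside the route to aromatase such as Srd5a1 and Hsd17b7, 10 rose and 0 fell between day 8 and day 50 (median 1.80), and 0 rose and 9 fell between day 50 and day 65 (median -1.19). Hsd3b1, a 3-beta-hydroxysteroid dehydrogenase, rose from 223 ± 164 to 2775 ± 152 normalized CPM (log2 fold change 3.64, edgeR adjusted p = 2.23e-04), a log2 fold change that was 4.43 without day 8 replicate 1. Cyp11a1, which cleaves the cholesterol side chain, rose from 17.5 ± 17.7 to 419.9 ± 116 and stood at 107 ± 36.6 at day 65 (edgeR adjusted p = 5.78e-04 for the rise). Its log2 fold change at day 50 was 4.60, and 5.82 without day 8 replicate 1. Cyp17a1, the theca enzyme that forms androgens, fell from 113 ± 65.7 at day 50 to 7.95 ± 3.51 at day 65 (edgeR adjusted p = 0.00172). Srd5a1, a steroid 5-alpha-reductase, rose from 8.17 ± 1.15 to 58.6 ± 6.46 and fell to 14.5 ± 4.97 (edgeR adjusted p = 1.38e-05 and 9.94e-05). The summed theca markers were also highest at day 50, but they share Star, Cyp11a1, Hsd3b1, Cyp17a1 and Fdx1 with this list, and Hsd3b1 is the largest part of the sum. Of the 5 markers not shared, none was called lower between day 50 and day 65 in normalized CPM. Ptch1, the receptor of hedgehog ligands, rose from 76.9 ± 25.8 to 173 ± 3.30 normalized CPM (edgeR adjusted p = 0.00652), and Gli1, a target of that pathway, from 13.3 ± 4.73 to 39.8 ± 15.7 (edgeR adjusted p = 0.00715), though neither on the TPM scale. Insl3, Enpep and Nr2f2 did not pass at that step.

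Of 8 genes listed for estrogen inactivation, 5 were tested. Between day 8 and day 50, 4 of them rose and 0 fell (median 0.83), and 2 rose and 1 fell between day 50 and day 65 (median 1.02). Cyp1b1, which hydroxylates estradiol, rose from 106 ± 12.7 to 373 ± 73.8 and 756 ± 83.2 normalized CPM (edgeR adjusted p = 5.22e-05 and 0.00119). Its second step did not pass on the TPM scale. Hsd17b2, which oxidizes estradiol back to estrone, fell from 31.9 ± 4.76 at day 50 to 4.15 ± 4.81 at day 65 (log2 fold change -2.90, edgeR adjusted p = 0.00434; -4.42 without day 65 replicate 3). Of 8 sex steroid receptors and targets, 5 rose and 1 fell between day 8 and day 50 (median 1.49), and 2 rose and 3 fell between day 50 and day 65 (median -0.63). For this list and that of estrogen inactivation, the calls after day 50 in either direction stood near the 55.9% of all genes. Esr1, estrogen receptor alpha, fell at both steps, from 146 ± 31.9 to 78.8 ± 0.636 and 13.1 ± 7.07 (edgeR adjusted p = 0.0472 and 2.32e-04). The first of these falls did not pass on the TPM scale, nor scaled by library size alone, nor without day 8 replicate 2 or 3, any 1 of the day 50 libraries, or day 65 replicate 2. Esr2, estrogen receptor beta, rose from 30.8 ± 6.54 to 137 ± 21.4 and fell to 71.8 ± 10.4 (edgeR adjusted p = 1.84e-05 and 0.00177).

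For each gene, the 3 genes with the most similar course over the 9 libraries were found by Pearson's correlation of log2 normalized CPM among 10319 named genes averaging 10 CPM or more. With 3 ages of 3 libraries many genes share a course, so these are descriptions. Fshr was closest to Zfp24 (r = 0.987), Ppt1 (0.976) and Herc4 (0.970). Zfp24 varied far less than Fshr, at 48.7 ± 5.35, 67.6 ± 2.68 and 40.6 ± 4.33 normalized CPM. Lhcgr was closest to Smim10l2a (r = 0.966), Fdx1 (0.964) and Galnt15 (0.964). Fdx1, which passes electrons to CYP11A1, measured 22.9 ± 12.4, 84.9 ± 10.1 and 42.9 ± 1.78 normalized CPM. Amh was closest to Mturn (r = 0.986), Pkia (0.975), an inhibitor of protein kinase A, and Dusp22 (0.969). Amhr2 was closest to Exoc3 (r = 0.954), Stxbp2 (0.944) and Nectin2 (0.934). Day 8 replicate 1 was the lowest library for Amhr2 and for each of them, with Nectin2 at 83.6 normalized CPM against 178 and 160 in replicates 2 and 3. How far that library makes the likeness was not tested. Cyp19a1 was closest to the lipoprotein receptor gene Vldlr (r = 0.977), the prolactin receptor gene Prlr (0.976) and Smim3 (0.976). Prlr measured 9.16 ± 7.72, 94.2 ± 14.8 and 23.5 ± 0.830 normalized CPM. Hsd17b1 was closest to Bex4 (r = 0.998), Me3 (0.997) and Phyh (0.997), and 208 genes reached an r over 0.95 with it, against 1 for Amhr2, 5 for Lhcgr, 17 for Amh, 26 for Fshr and 27 for Cyp19a1.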

How the data were processed

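Ovary RNA was measured in 9 libraries, 3 per age. The deposited expected counts are RSEM estimates per gene without normalization, per the file headers. The deposited TPM and FPKM values carry RSEM's scaling to effective length and library, and the deposited lengths, in bases, are weighted over transcripts. The build is GRCm38 (mm10) per the submitters' processing notes. Aligner and strand setting: not given in the sources used here. Within GENCODE M21 no other gene overlapped an exon of the 6 genes. FPKM values were not used.

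Rounded to whole numbers, the expected counts entered edgeR 4.0.16 (R 4.3.3): filterByExpr, TMM scaling, 1 model with a term per age over 9 libraries, glmQLFit and glmQLFTest (robust, two-sided), with Benjamini-Hochberg adjustment over 17747 genes. SE is the absolute log2 fold change over the root of F. The procedure was also run on simulated counts with a single fixed spread and few changed genes. The coefficient of variation between real libraries was 27.1%, 12.0% and 27.8% at days 8, 50 and 65. That run therefore does not give the error rates here. Alternatives used DESeq2 1.42.0, other scalings and filters, each library left out, and limma 3.58.1 on log2(TPM + 0.1). Of the related lists, up to 4 called genes per comparison were eligible to be named, by smallest p with each direction included; the text gives a selection, and 2 of the eligible genes are not reported here. Of the 174 genes listed in all, 173 were in the tables. The members and lists were chosen with earlier results of these data known. Replicate numbers did not pair libraries across ages. Libraries carry 14116908 to 18868831 counts, and no use of molecular identifiers is stated in the labels. Promoter sequences are from RefSeq on GRCm38.p6.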

Additional observations from a re-analysis of the deposited data

How the results depend on the processing

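In every alternative that tested them, direction and call held for Hsd17b1 (day 50 and day 65 against day 8), Amh (day 65 against both other ages), Cyp19a1 (day 50 against day 8) and Fshr (day 65 against day 50). With no filter on low counts, the calls at day 50 against day 8 ended for Fshr (log2 fold change 2.94, edgeR adjusted p = 0.0532) and Lhcgr (3.03, 0.0595), leaving 2 genes higher. Those at day 65 against day 50 ended for Lhcgr (-1.98, 0.143) and Cyp19a1 (-1.67, 0.0744), leaving 2 lower. The cause was not tested. Removing the length and GC trend ended the Lhcgr call at that step (-1.29, 0.125).

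For day 65 against day 8, the Fshr call ended with no filter (-2.29, edgeR adjusted p = 0.135), in a model of those ages alone (-2.32, 0.0586), with the replicate block (-2.00, 0.0630) and with the length and GC trend removed (-2.10, 0.0504). With at least 10 counts in every library Fshr was not tested, and each of these 5 settings left 1 gene lower. Cyp19a1 passed with DESeq2's size factors (1.34, 0.0478), DESeq2's Wald test (1.33, adjusted p = 0.0187), the replicate block (1.53, 0.0190), the length and GC trend removed (1.54, 0.0380) and ribosomal and mitochondrial genes left out (1.40, 0.0398), each giving 2 genes higher. Amhr2 turned sign with library size only (-0.15), the trend removed (-0.34) and TPM (-0.47), none past the threshold. On the TPM scale, Amhr2 (-1.03) and Hsd17b1 (-0.94) passed as lower at day 65 than at day 50, where Id1 (-0.037) and Pecam1 (-0.35) turned sign.

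With 1 library left out at a time, the fitted log2 fold change of day 65 against day 50 ran from -2.32 to -1.63 for Lhcgr and from -1.83 to -1.37 for Cyp19a1, with 2 to 4 genes lower. For day 65 against day 8 it ran from -2.86 to -0.84 for Fshr, 0.58 to 2.52 for Lhcgr, -0.10 to 0.39 for Amhr2 and 1.01 to 2.52 for Cyp19a1, with 1 to 3 genes higher and 1 to 2 lower. The replicate numbers share only a number: deviations of same-numbered libraries from their age means correlated between -0.0432 and 0.0520, and the same number was the best match in 5 of 18 cases. Adding the replicate block gave 6735, 9368 and 10736 calls over all genes in the 3 comparisons, against 7249, 9916 and 11057. Depth limits Fshr most, with 31 counts in all at day 65.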
